A study of Mus musculus with 35 samples.

Results

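Livers of 3-week-old mice that lacked both E2f7 and E2f8 were compared directly with livers that lacked E2f7 alone, so the comparison measured what loss of E2f8 adds once E2f7 is gone. The 8 arrays labelled 3w 78KO and 3w 7KO, 4 of each, were taken from 35 arrays of liver RNA in 9 groups of genotype and age. The first group carried Albumin-Cre with floxed E2f7 and floxed E2f8, the other Albumin-Cre with floxed E2f7, all on an FVB background. Further 3-week arrays came from Albumin-Cre livers with floxed E2f8 alone (4 arrays) and from wild-type livers (3 arrays, Cre status not given in the labels). At 2 months of age the E2f7/E2f8 knockout and the E2f7 knockout had 4 arrays each. Albumin-Cre acts mainly in hepatocytes, so liver cells without Cre activity keep both genes, and the signals come from whole tissue. The animals' sex is not stated in the labels. Arrays carry a number within their group, with no statement that each is a separate animal; p-values thus measure only the spread between these samples, which may be technical.

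E2F proteins bind the promoters of genes for DNA synthesis and cell division. E2f7 and E2f8 are the atypical members: each has a pair of DNA-binding domains, binds without a DP partner, and represses E2F target genes late in S phase. In the mouse liver the pair is known for its role in making hepatocytes polyploid after weaning, and either protein can stand in for the other at many targets.

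The deposited values are log2 signals from RMA (robust multi-array averaging, a way of summarising the probes of a set), and a difference of 1 is a doubling of signal. Each of 18193 genes was represented by 1 probe set, the one with the highest mean over all arrays. The 8 arrays shared 1 distribution of sorted values with the other 3-week arrays, and their values correlated across genes with r between 0.9906 and 0.9965. Arrays have no read depth, and the number of arrays limits the precision. Probe sets that report on RNA degradation, as 3' minus 5' signal of Gapdh and Actb, averaged 1.09 ± 0.07 in the E2f7/E2f8 knockout and 1.09 ± 0.03 in the E2f7 knockout (SD, n = 4 each; two-sided exact permutation p = 0.971 over 70 splits, of which the smallest possible p is 0.0286). Replicates 3 and 4 of the E2f7/E2f8 knockout differed from replicates 1 and 2 in stress genes and in male-biased liver genes. The mean level of fatty acid synthesis genes split likewise, at 11.45, 11.50, 10.78 and 10.89 in replicates 1 to 4 of that knockout. Replicate 3 of the wild type differed from the other wild-type arrays in several genes named here. Further values stand beside the genes and lists concerned.

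Few genes were called for loss of E2f8 on top of E2f7 at this age. Of the 18193 genes 22 (0.121%) passed a Benjamini-Hochberg adjusted p of 0.05 in limma, 9 higher (0.0495%) and 13 lower (0.0715%) in the E2f7/E2f8 knockout. The best supported was a fall of the long non-coding RNA Gm2788, which overlaps the start of E2f8. Of the genes of the cell cycle only Pclaf, a clamp-binding replication factor, was called, and it rose. The other called genes included enzymes of glutathione conjugation (Gstt2 higher, Gstk1 lower), and of branched-chain amino acid breakdown (Bcat2 higher, Ppm1k lower), the repair protein Mgmt and the polymerase Polk (both lower), a transporter, receptors and an MHC class II chain. At an unadjusted p under 0.05 stood 1545 genes, 844 higher and 701 lower, and the median difference over all genes was 0.01. In 1025 genes (5.63%) the 4 arrays of one group lay beyond all 4 of the other, 523 higher (2.87%) and 502 lower (2.76%).

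The number of calls moved with single arrays and with the arrays that entered the fit. It was 9, 7, 14, 8 and 5 when replicate 2 or 3 of the E2f7/E2f8 knockout or replicate 1, 3 or 4 of the E2f7 knockout was left out, and 7 with only the 15 arrays of 3 weeks. In that smaller fit 3 of the 22 genes kept their call, namely Gm2788, Pcdh17 and Gstk1. With only the 8 arrays compared 37 genes were called, 12 of them among the 22. Gm2788, Pcdh17, Ephb6 and Gstk1 kept their call whichever of the 8 arrays was left out. Each of the other called genes lost it in 2 to 8 of the 8 omissions. Pcdh17 and Ephb6 belong to the dimmest 40% of genes by mean signal over all 35 arrays.

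**Figure D1:**
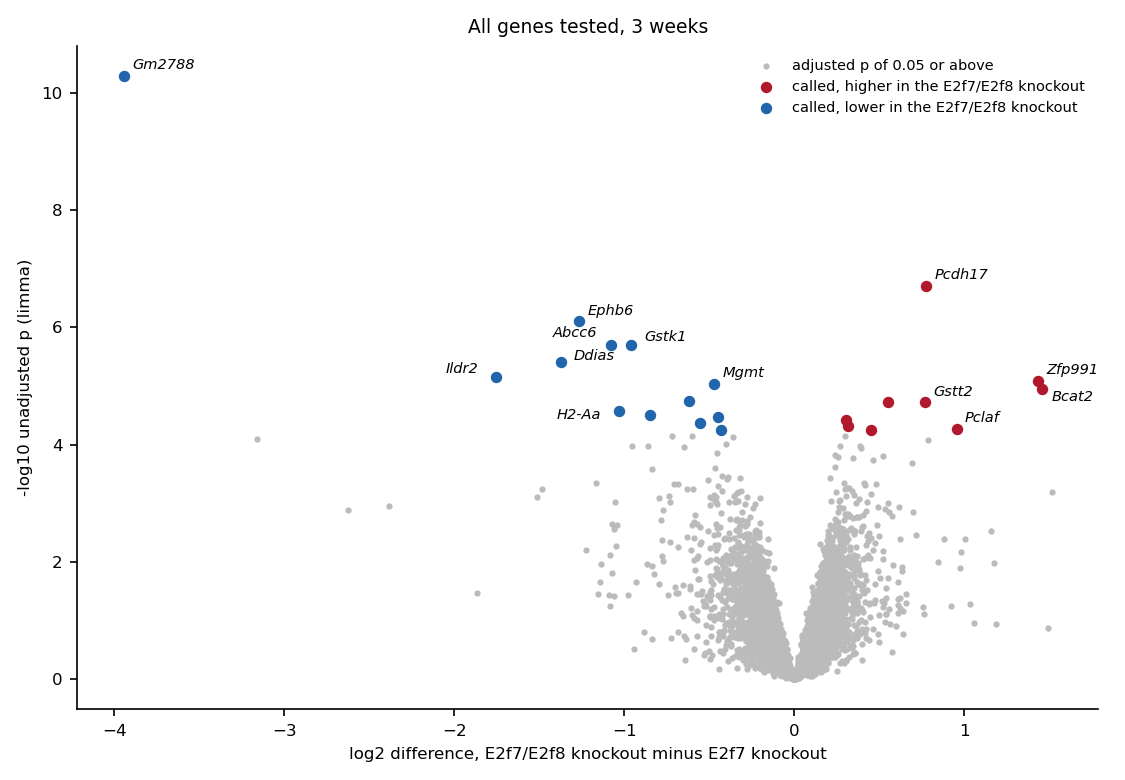
Difference of each of the 18193 genes at 3 weeks, E2f7/E2f8 knockout minus E2f7 knockout, on the log2 scale (horizontal) against the −log10 of its unadjusted limma p (vertical), with the 22 called genes coloured and some of them named. Gm2788 stands alone at the upper left, Pcdh17 has the smallest p among the higher genes, and the weakest calls border on genes that were not called.

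The targeted genes were examined first. E2f8 had log2 signals of 8.72, 9.56, 8.24 and 8.38 in the E2f7/E2f8 knockout, against 7.45, 7.71, 7.54 and 8.18 in the E2f7 knockout. All 4 double-knockout arrays were above all 4 E2f7-knockout arrays, but the difference of 1.01 (SE 0.32) did not pass the test (adjusted p = 0.321). Signal of the deleted gene was therefore not lower in the livers labelled as lacking it. A second E2f8 probe set differed by 0.56 in the same direction. Which exons the probe sets cover, and which Cre removes, is not stated in the labels or files, so neither probe set checks the deletion.

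Gm2788 separated the groups by the E2f8 genotype. Its log2 signals were 5.72, 5.65, 5.98 and 5.82 in the E2f7/E2f8 knockout, against 9.26, 9.89, 9.81 and 10.002 in the E2f7 knockout. The 8 values fell into separate ranges with a wide gap between them, and the level was lower by 3.94 on the log2 scale (difference −3.94, SE 0.40, adjusted p = 9.19e-07). On the GRCm38.p6 assembly E2f8 lies on the minus strand at chr7:48866429-48882073 and Gm2788, annotated as a long non-coding RNA, at chr7:48881300-48886608, so that they share 774 bases at the 5' end of E2f8. Which part of Gm2788 its probe set covers is not stated in the files.

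The window taken as the E2f8 promoter, chr7:48881547-48881846 on the minus strand (250 bases before the start used and 50 after), lies within Gm2788. It also lies inside the E2f8 span given above, so the start used is not the outermost 5' end of that gene. It is shown because the gene with the strongest fall is annotated across it:
E2f8: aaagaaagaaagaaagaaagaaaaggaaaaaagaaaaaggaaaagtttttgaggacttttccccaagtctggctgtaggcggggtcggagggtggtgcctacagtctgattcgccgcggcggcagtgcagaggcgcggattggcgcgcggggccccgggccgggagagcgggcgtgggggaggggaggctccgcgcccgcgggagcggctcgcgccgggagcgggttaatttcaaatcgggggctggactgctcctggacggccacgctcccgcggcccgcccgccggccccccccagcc
No capitals are set in it, because 0 matches were found to the 4 E2F words searched on both strands (TTTCCCGC, TTTCGCGC, TTTGGCGC and TTTGCCGC). Bases upstream of the outermost 5' end of E2f8 were not searched.

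The other E2F genes named in the study did not pass the test. E2f7, floxed in both groups, had log2 signals of 4.31, 4.85, 4.62 and 4.66 in the E2f7/E2f8 knockout and 4.69, 4.85, 4.70 and 4.85 in the E2f7 knockout (difference −0.16, adjusted p = 0.827). The groups overlapped, and wild type stood at the same level, with 4.89, 4.76 and 4.62, so this probe set does not check the deletion of E2f7. E2f1, an activator and a known target of E2f7 and E2f8, differed by −0.05 (adjusted p = 0.946). E2f2, a further activator, differed by 0.32 (adjusted p = 0.402) and E2f3 by 0.10 (adjusted p = 0.869).

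Pclaf was the only one of 32 measured E2F targets of the G1/S transition to be called. It encodes a small protein that binds the replication clamp PCNA and is a known E2F target. Its log2 signals were 7.84, 8.55, 9.23 and 9.18 in the E2f7/E2f8 knockout, against 7.61, 7.97, 7.57 and 7.81 in the E2f7 knockout. Replicate 1 of the double knockout lay within the range of the E2f7 knockout and replicates 3 and 4 were highest, and Pclaf was the only called gene whose groups overlapped. The group means were 8.70 ± 0.65 and 7.74 ± 0.19 (SD, n = 4 each), and the rise of 0.96 (SE 0.20) passed narrowly (adjusted p = 0.0475). The call was lost in 7 of the 8 omissions of an array. A second Pclaf probe set differed by 0.71 and the last by −0.03.

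The Pclaf promoter is shown because it is the only called gene's window that held one of the E2F words, given in capitals on the plus strand at chr9:65890073-65890372 (GRCm38.p6, RefSeq):
Pclaf: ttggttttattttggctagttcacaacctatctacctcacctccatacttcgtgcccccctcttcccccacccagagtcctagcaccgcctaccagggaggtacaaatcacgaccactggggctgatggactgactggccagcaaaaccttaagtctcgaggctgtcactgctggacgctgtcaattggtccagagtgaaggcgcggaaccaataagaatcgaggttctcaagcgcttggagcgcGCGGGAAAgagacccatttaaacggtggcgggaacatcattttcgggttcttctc
The match, GCGGGAAA, is the reverse complement of TTTCCCGC and begins at position 246 of the window, 5 bases before the annotated start. Of the genes on the array with a promoter in the table, 550 of 14452 (3.81%) held at least 1 of the 4 words. Among the called genes with a promoter there, 1 of 7 that were higher and 0 of 10 that were lower held one. A match describes letters in the window and is not a measured binding site.

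The genes that rose included several of intermediary metabolism and of cell surface signalling. Bcat2, the mitochondrial aminotransferase that starts the breakdown of branched-chain amino acids, had log2 signals of 6.07, 5.60, 6.40 and 6.05 in the E2f7/E2f8 knockout and 4.04, 5.07, 4.41 and 4.77 in the E2f7 knockout. The groups did not overlap, and the difference was 1.46 (SE 0.28, adjusted p = 0.0204). Gstt2, a theta-class glutathione S-transferase that conjugates electrophiles, had 9.86, 10.14, 10.33 and 10.17 in the E2f7/E2f8 knockout and 9.54, 9.38, 9.28 and 9.21 in the E2f7 knockout. Every double-knockout array was the higher, with a difference of 0.77 (SE 0.15, adjusted p = 0.0266). Zfp991, a zinc finger gene, had 6.01, 5.73, 6.32 and 6.17 against 4.53, 5.03, 4.42 and 4.51 in these groups, a difference of 1.44 (SE 0.27, adjusted p = 0.0184). Its other probe sets differed by −0.56 and 0.04, so the rise was seen by 1 of 3 probe sets.

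Fzd5, a receptor for Wnt ligands, had log2 signals of 6.38, 6.42, 6.65 and 6.44 in the E2f7/E2f8 knockout, against 6.14, 5.90, 5.89 and 5.76 in the E2f7 knockout. The groups were apart by a narrow gap, and the rise was 0.55 (SE 0.11, adjusted p = 0.0266), with a second probe set at 0.07. Pcdh17, a protocadherin of cell adhesion, had 4.46, 4.50, 4.53 and 4.47 in the E2f7/E2f8 knockout, against 4.14, 3.5, 3.60 and 3.60 in the E2f7 knockout. The double-knockout arrays were nearly equal and replicate 1 of the E2f7 knockout stood above its group. The rise was 0.78 (SE 0.12, adjusted p = 0.00176). A second Pcdh17 probe set differed by 0.35, with low mean signals of 2.88 in the E2f7/E2f8 knockout and 2.53 in the E2f7 knockout. Camta1, a calmodulin-binding transcription activator, rose by 0.46 (SE 0.10, adjusted p = 0.0475) with 3 other probe sets at −0.01, 0.08 and 0.12. Pgap3, which remodels the lipid of GPI anchors, rose by 0.32 (SE 0.07, adjusted p = 0.0453). The last of the 9 had only a clone name.

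Fewer than 10 named genes rose without overlap, so those next in p are given as values. Slc7a9, a subunit of the cystine transporter, differed by 0.30 (adjusted p = 0.0515). Nox4, an oxidase that makes hydrogen peroxide, differed by 0.79 (adjusted p = 0.0545) with log2 signals of 4.74, 4.64, 4.58 and 4.29 in the E2f7/E2f8 knockout and 4.20, 3.40, 4.10 and 3.40 in the E2f7 knockout. Both lay just outside the threshold, as Pclaf and Camta1 lay just inside it.

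The lower genes included enzymes and a transporter of the hepatocyte. Gstk1, the kappa-class glutathione S-transferase of mitochondria and peroxisomes, had log2 signals of 10.72, 10.64, 11.03 and 10.83 in the E2f7/E2f8 knockout, against 11.78, 11.77, 11.68 and 11.82 in the E2f7 knockout. The ranges were far apart for their width, and the level fell by 0.96 on the log2 scale (difference −0.96, SE 0.16, adjusted p = 0.00724). Abcc6, a hepatocyte efflux transporter whose human counterpart is lost in pseudoxanthoma elasticum, had 8.03, 8.83, 7.96 and 8.20 in the E2f7/E2f8 knockout and 9.33, 9.45, 9.0 and 9.54 in the E2f7 knockout (difference −1.08, SE 0.18, adjusted p = 0.00724). Replicate 2 of the double knockout came nearest to the other group without reaching it.

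Fmo4, a flavin-containing monooxygenase of xenobiotic oxidation, averaged 7.25 ± 0.12 in the E2f7/E2f8 knockout and 8.10 ± 0.24 in the E2f7 knockout (SD, n = 4 each; difference −0.85, adjusted p = 0.0374). Ppm1k, the mitochondrial phosphatase that activates the branched-chain ketoacid dehydrogenase, averaged 9.65 ± 0.31 and 10.20 ± 0.18 in these groups (difference −0.55, adjusted p = 0.0431), with a second probe set at 0.05. The called probe sets of Bcat2, an enzyme of branched-chain amino acid breakdown, and Ppm1k, a regulator of it, thus differed in opposite directions. Ildr2, an immunoglobulin-like membrane protein linked to lipid handling in mouse liver, had log2 signals of 7.11, 6.67, 6.06 and 5.95 in the E2f7/E2f8 knockout, against 8.06, 7.53, 8.90 and 8.33 in the E2f7 knockout. The groups did not overlap but each spread widely, and the difference was −1.76 (SE 0.32, adjusted p = 0.0184). Its other probe sets differed by −1.28 and −0.33.

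Ephb6, an Eph receptor without kinase activity, had log2 signals of 4.29, 3.96, 3.96 and 4.37 in the E2f7/E2f8 knockout, against 5.85, 5.34, 5.17 and 5.28 in the E2f7 knockout. All 4 double-knockout arrays were lower, by a mean of 1.27 (difference −1.27, SE 0.20, adjusted p = 0.00480). H2-Aa, the alpha chain of the MHC class II molecule that antigen-presenting cells use, had 7.64, 7.97, 7.61 and 7.98 in the E2f7/E2f8 knockout and 8.93, 8.18, 9.04 and 9.16 in the E2f7 knockout. Replicate 2 of the E2f7 knockout was the nearest to the double knockout, and the difference was −1.03 (SE 0.21, adjusted p = 0.0341), with other probe sets at −0.72, −0.38 and −0.02. Cfhr3, a complement factor H-related gene, fell by 0.62 (difference −0.62, adjusted p = 0.0266). Wfdc21, a secreted protein with a WAP domain, fell by 0.45 (difference −0.45, adjusted p = 0.0390).

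The last of the lower genes were Ddias, Mgmt and Polk, which belong to no list used here. Ddias, named for suppressing apoptosis after DNA damage, had log2 signals of 5.48, 5.34, 5.91 and 5.72 in the E2f7/E2f8 knockout, against 6.99, 6.82, 6.95 and 7.19 in the E2f7 knockout. The ranges were widely separated (difference −1.37, SE 0.24, adjusted p = 0.0120), and a second probe set differed by −0.74. Mgmt, which removes alkyl groups from guanine, averaged 6.70 ± 0.17 in the E2f7/E2f8 knockout and 7.17 ± 0.17 in the E2f7 knockout (SD, n = 4 each; difference −0.47, adjusted p = 0.0184). Polk, a polymerase that copies past damaged bases, averaged 6.02 ± 0.16 and 6.45 ± 0.06 in these groups (difference −0.43, adjusted p = 0.0475), with a second probe set at −0.15.

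**Figure D2:**
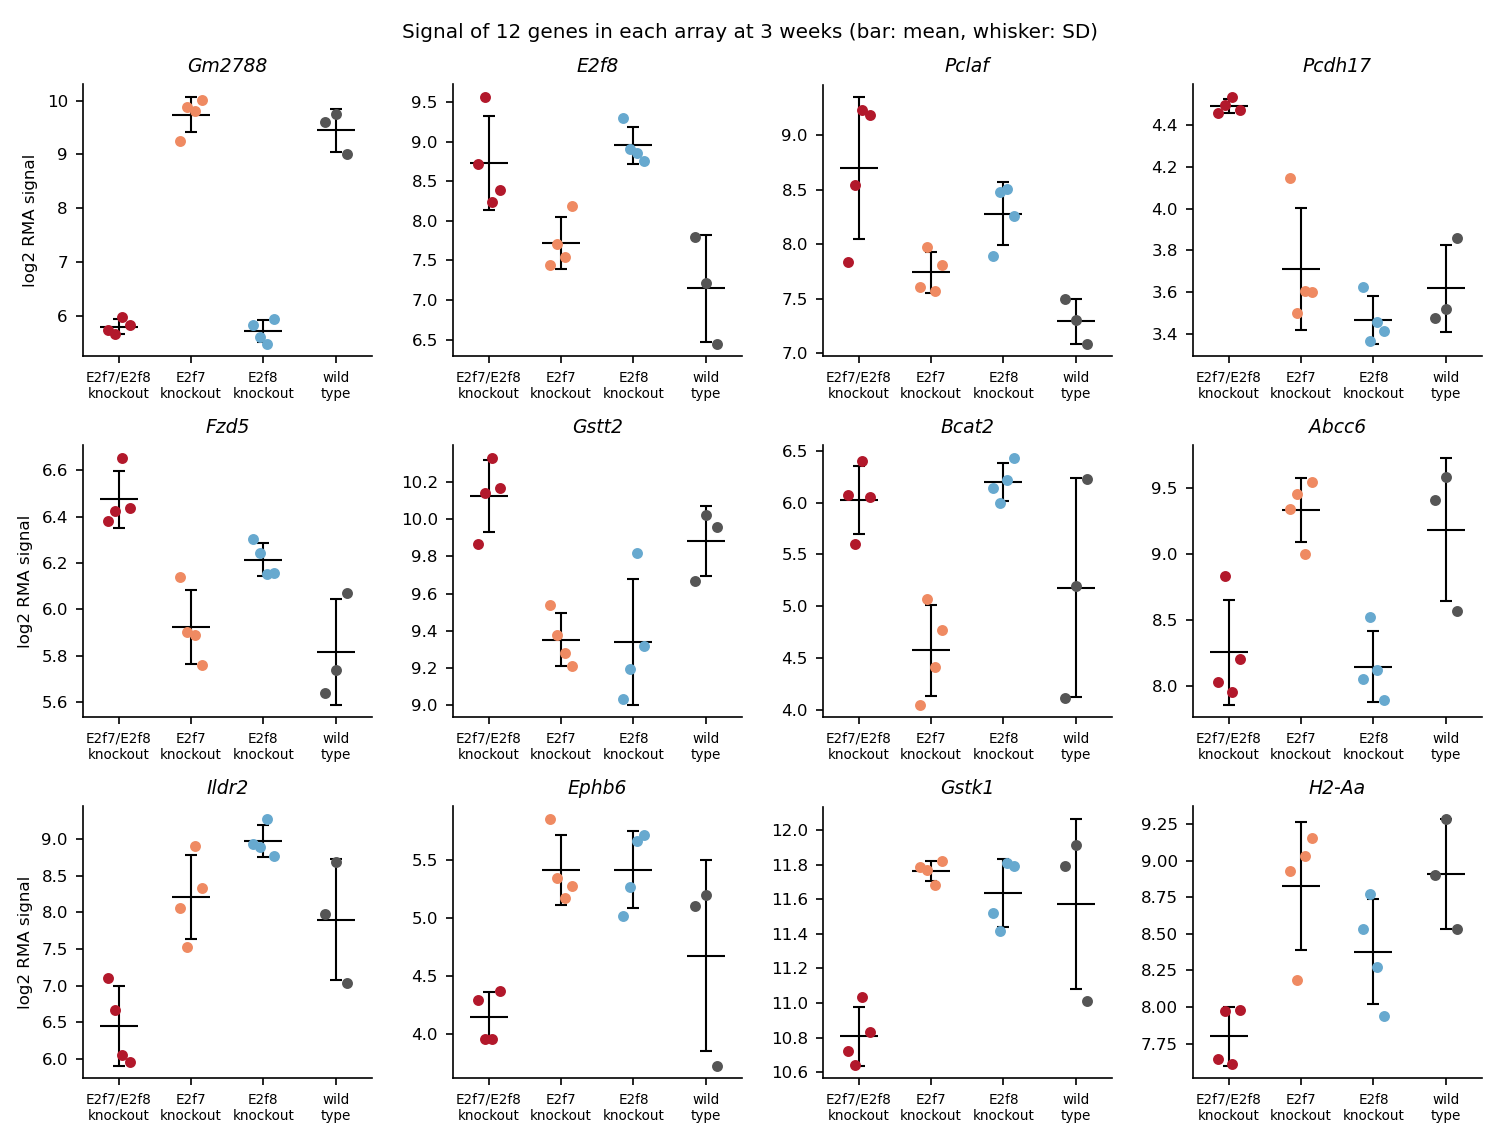
Log2 RMA signal (vertical axis) of 12 genes in each array of 3 weeks, with the E2f7/E2f8 knockout, E2f7 knockout, E2f8 knockout and wild type from left to right in each panel; points are arrays, bars group means and whiskers the SD. Gm2788 is low in both groups without E2f8, whereas Gstk1 and Ephb6 are low in the E2f7/E2f8 knockout and, among wild-type arrays, in replicate 3.

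Gm2788, Abcc6 and Bcat2 lie within 10 Mb of E2f8 on chromosome 7, a window chosen after their values were seen. Of the 203 genes tested in that window 3 (1.48%) were called, against 19 of 17942 genes with a position elsewhere (0.106%). Abcc6 lies at chr7:45974110-46030491 and Bcat2 at chr7:45568967-45589710 on GRCm38.p6, with midpoints 2.87 and 3.29 Mb from that of E2f8, toward lower coordinates. In the E2f8 knockout against wild type, other arrays than those compared here, 6 of the 203 genes were called (2.96%, against 1.89% elsewhere), and at 2 months 4 (1.97%, against 0.217% elsewhere). Gm2788 was called in each of these and Abcc6 in that at 3 weeks. The origin of the chromosome around the floxed E2f8 allele, and whether it matches that of the E2f7 knockout, is not stated in the labels, and its part in these values was not tested. Over the whole of chromosome 7, which also holds Ddias and Mgmt, 5 of 1420 genes were called (0.352%, against 0.102% elsewhere).

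**Figure D3:**
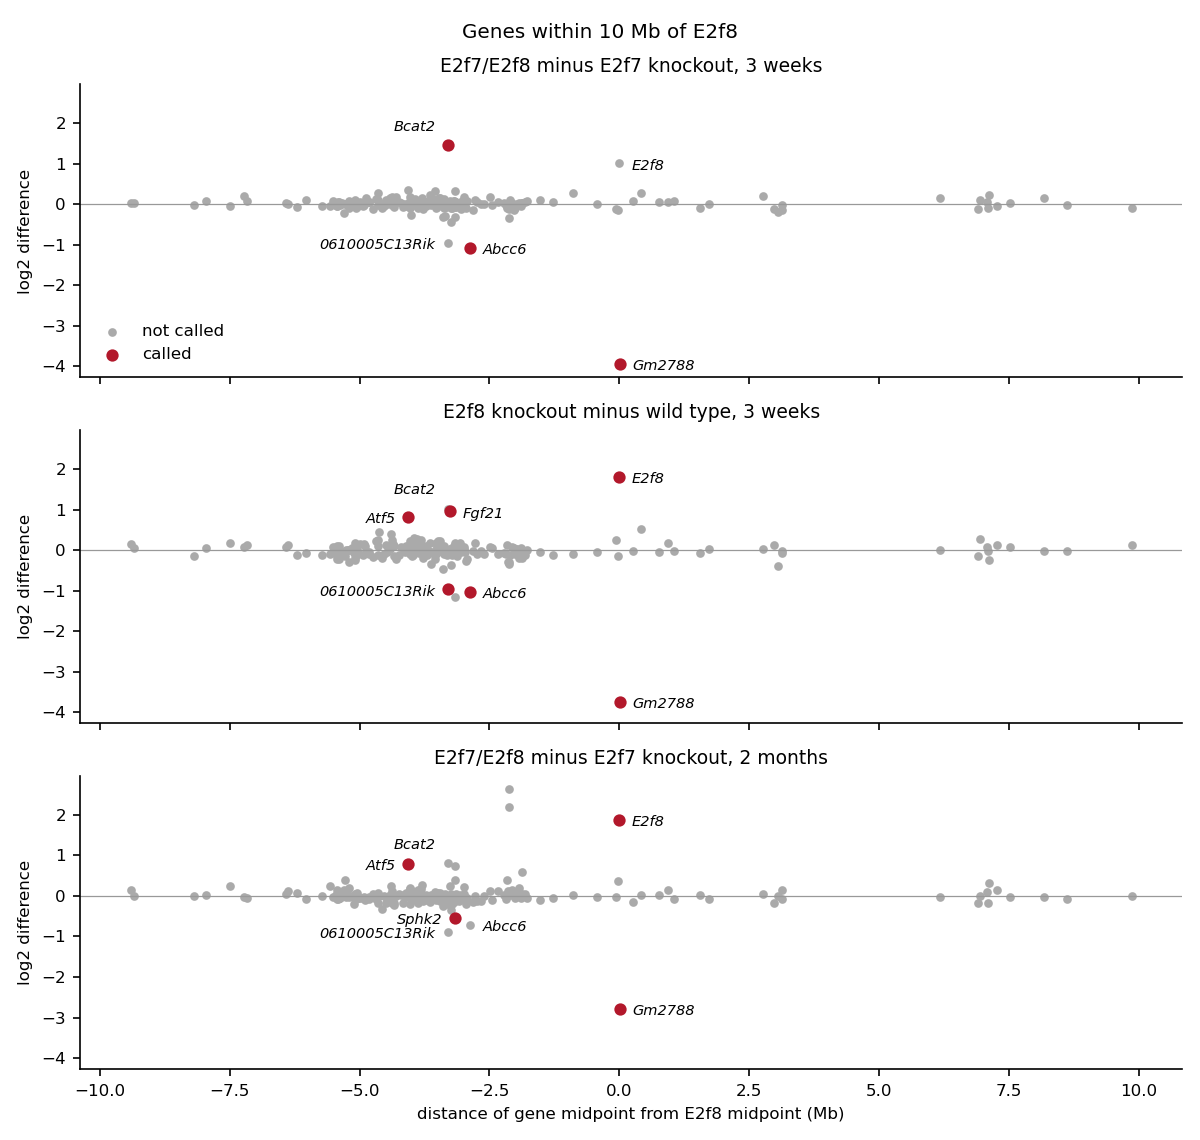
Log2 differences (vertical axis) of the genes whose midpoint lies within 10 Mb of that of E2f8, by their distance from it in Mb (horizontal axis), in 3 panels: E2f7/E2f8 knockout minus E2f7 knockout at 3 weeks, E2f8 knockout minus wild type at 3 weeks, and E2f7/E2f8 knockout minus E2f7 knockout at 2 months. Gm2788 is the lowest point of each panel, and Abcc6 is lower in each, by −1.08, −1.04 and −0.72.

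The same allele was removed from livers that kept E2f7, in the E2f8 knockout against wild type at 3 weeks. The group means there come from different arrays, though all arrays share the fitted spread. In that fit 347 genes (1.91%) were called there, 160 higher (0.879%) and 187 lower (1.03%). With only the arrays of each comparison in its fit, 23 genes were called there, against 37 in the main comparison. The order of the counts thus depends on the fit. Of the 22 genes, 13 (59.1%) had the same sign in the E2f8 knockout against wild type, as had 10078 (55.4%) of all genes. Of the 347 genes, 246 (70.9%) had the same sign in the main comparison. Pclaf, Abcc6, Mgmt, Gm2788 and Camta1 were called in both and in the same direction, which is 22.7% of the 22 and 1.44% of the 347. Across genes the 2 sets of differences correlated with r = 0.208, a description over genes that share arrays and are not replicates.

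These shared genes were picked by passing in both comparisons with the same sign, a choice that itself favours similar sizes. Their differences are given as values only. Gm2788 had 5.82, 5.60, 5.47 and 5.93 in the E2f8 knockout against 9.60, 9.75 and 9.0 in wild type, a difference of −3.74 (adjusted p = 8.52e-06) beside −3.94 without E2f7. Pclaf had 7.89, 8.48, 8.51 and 8.26 in the E2f8 knockout against 7.5, 7.30 and 7.09 in wild type, a rise of 0.99 (adjusted p = 0.0157) beside 0.96. Here every knockout array lay above wild type. Without replicate 3 of the wild type the Pclaf call was lost (0.88, adjusted p = 0.0679). Abcc6 differed by −1.04 (adjusted p = 0.00488) beside −1.08, Mgmt by −0.51 (adjusted p = 0.00414) beside −0.47, and Camta1 by 0.53 (adjusted p = 0.00698) beside 0.46. E2f8 itself was called higher in the E2f8 knockout, by 1.8 (adjusted p = 0.00549), beside 1.01 in the double loss; the difference between these effects was −0.79 (adjusted p = 0.652).

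Whether loss of E2f8 acts differently without E2f7 was tested directly, as the interaction between the 2 comparisons. It called 23 genes (0.126%), 15 higher (0.0824%) and 8 lower (0.0440%), and 5 of them were among the 22. The interaction contains the main comparison and shares its arrays, so this overlap is not separate support. Ildr2 was lower without E2f7 by −1.76, while with E2f7 it had 8.94, 8.89, 9.27 and 8.77 in the E2f8 knockout against 7.98, 8.68 and 7.04 in wild type (difference 1.07, adjusted p = 0.110); the interaction was −2.82 (SE 0.48, adjusted p = 0.00722). Ephb6 had 5.02, 5.26, 5.66 and 5.71 in the E2f8 knockout against 5.11, 5.19 and 3.72 in wild type (difference 0.74), and its interaction was −2.01 (SE 0.30, adjusted p = 0.00194). Replicate 3 of the wild type stood below its group in both genes. Without that array the interactions of Ildr2 and Ephb6 were −2.39 and −1.53 and stayed past the threshold, whereas those of Pcdh17 and Cfhr3 did not, and 10 genes were called in place of 23.

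Gstt2 had 9.03, 9.19, 9.82 and 9.32 in the E2f8 knockout against 9.67, 10.02 and 9.96 in wild type (difference −0.54, adjusted p = 0.0802), opposite in sign to its rise of 0.77 in the double loss. Its interaction was 1.31 (SE 0.22, adjusted p = 0.00722). Pcdh17 differed by −0.15 with E2f7 present (interaction 0.93, adjusted p = 0.0148) and Cfhr3 by 0.26 (interaction −0.88, adjusted p = 0.0319), and these interactions were lost in 2 and 11 of 15 omissions of 1 array. With only the 15 arrays of 3 weeks the interaction called 2 genes, Trhde and Gys2, and none of these 5.

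Genes that were not called in the double loss also entered the interaction. Trhde, which cleaves thyrotropin-releasing hormone, had log2 signals of 4.55, 4.70, 4.68 and 4.48 in the E2f7/E2f8 knockout, against 4.56, 4.56, 4.36 and 4.93 in the E2f7 knockout. The E2f8 knockout had 2.70, 2.27, 2.32 and 2.37, against 4.76, 4.90 and 4.02 in wild type. The E2f8 knockout alone was low, by −2.14, and the interaction was 2.14 (adjusted p = 0.000398). Gys2, the liver glycogen synthase, had 9.47, 9.59, 9.51 and 9.46 in the E2f8 knockout against 10.38, 10.33 and 10.28 in wild type, while the E2f7/E2f8 knockout and the E2f7 knockout overlapped (interaction 0.97, adjusted p = 0.00722). Npl, which breaks down sialic acid, differed by 0.56 without E2f7 and by −0.70 with it (interaction 1.25, adjusted p = 0.0149). Tars, a threonyl-tRNA synthetase, differed by −0.25 and 0.75 in the same order (interaction −1.0, adjusted p = 0.0319). Pafah1b3, a catalytic subunit that hydrolyses platelet-activating factor, differed by −0.34 and 0.40 (interaction −0.74, adjusted p = 0.0308). Of 15 omissions of 1 array the interaction was lost in 9 for Tars, 6 for Pafah1b3 and 1 for Npl.

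The genes with the largest called differences in the E2f8 knockout against wild type were also read where E2f7 was already lost. Angptl8, a hepatic regulator of lipoprotein lipase, had 10.12, 10.21, 10.09 and 10.20 in the E2f8 knockout against 7.07, 8.03 and 7.94 in wild type (difference 2.48, adjusted p = 0.00207). In the double loss it had 8.83, 9.54, 9.16 and 9.08 in the E2f7/E2f8 knockout, against 7.39, 7.77, 7.58 and 7.81 in the E2f7 knockout. Those groups were well apart, but the difference of 1.52 (SE 0.40) did not pass over all 35 arrays (adjusted p = 0.168); it did with only the 15 arrays of 3 weeks (adjusted p = 0.00167). Hsd3b1, a steroid dehydrogenase, differed by 1.72 with E2f7 present and −0.30 without it, and Slc30a10, a manganese exporter, by 1.35 and 0.04. Tubb2a, a tubulin, differed by 1.57 and 0.64. B4galnt1, a ganglioside synthase, differed by −3.88 and 0.13, Rgs16, a regulator of G protein signalling, by −3.58 and 0.25, Cyp2b13, a cytochrome P450, by −2.46 and −0.68, and Igfbp1, an IGF-binding protein, by −2.18 and −1.09. Of 7 omissions of 1 array, the call in the E2f8 knockout against wild type was lost in 5 for Igfbp1, in 4 for Tubb2a and in 2 for Rgs16. Among these genes and E2f8 the interaction was called for Trhde; those of Slc30a10 (−1.31, adjusted p = 0.0612), Hsd3b1 (−2.02, adjusted p = 0.0620) and B4galnt1 (4.00, adjusted p = 0.0661) missed the threshold narrowly.

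At 2 months the same genotypes were compared in different arrays, and 43 genes (0.236%) were called, 22 higher (0.121%) and 21 lower (0.115%). Of the 22 genes of 3 weeks 17 (77.3%) had the same sign there, as had 50.6% of all genes, and across genes r was 0.187. Gm2788 alone was called at both ages in the same direction (4.55% of the 22 and 2.33% of the 43). Its log2 signals at 2 months were 6.62, 6.61, 6.46 and 6.21 in the E2f7/E2f8 knockout, against 9.0, 9.42, 9.64 and 8.95 in the E2f7 knockout, a difference of −2.78 (adjusted p = 0.00154). E2f8 had 9.42, 9.45, 8.07 and 10.10 in the E2f7/E2f8 knockout, against 7.13, 7.79, 7.46 and 7.14 in the E2f7 knockout, and was called at this age (1.88, adjusted p = 0.0110). Gstk1 had 10.85, 11.07, 11.04 and 11.61 in the E2f7/E2f8 knockout, against 11.73, 11.73, 12.11 and 11.84 in the E2f7 knockout, again without overlap (difference −0.71, adjusted p = 0.0534). Pclaf differed by 0.01 and Ildr2 by 0.48 at 2 months.

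The genes with the largest called differences at 2 months were also read at 3 weeks. Usp18, an interferon-induced protease, differed by 1.59 at 2 months and by 0.85 at 3 weeks, where its signals were 7.56, 7.17, 7.74 and 7.95 in the E2f7/E2f8 knockout against 6.67, 6.96, 6.63 and 6.78 in the E2f7 knockout (adjusted p = 0.410). Ifit1, also induced by interferon, differed by 1.19 and 0.45. Fgl1, a secreted hepatocyte protein, differed by 1.59 at 2 months and −0.38 at 3 weeks, and Junb, an AP-1 subunit, by 1.55 and 0.12. Osbpl3, a lipid transfer protein, differed by −1.38 and 0.10, Pparg, a nuclear receptor of lipid storage, by −1.14 and −0.28, and Fitm1, which acts in lipid droplet formation, by −1.08 and −0.31. Lum, a matrix proteoglycan, differed by −1.04 and −0.24 and Cda, a cytidine deaminase, by −1.0 and −0.27. Most of these calls did not hold over the omissions: of 8 omissions of 1 array, Junb lost its call in 8, Fitm1 in 7, and Usp18, Fgl1, Ifit1, Lum and Cda in 6 each, while Osbpl3 and Pparg lost it in 0.

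A direct test of the change with age called 2 genes (0.0110%), 1 higher and 1 lower (0.00550% each). Gstt2 rose at 3 weeks, but at 2 months it had 10.83, 11.05, 10.66 and 11.12 in the E2f7/E2f8 knockout, against 11.30, 11.26, 11.27 and 11.67 in the E2f7 knockout. The order of the group means differed between the ages (0.77 at 3 weeks, −0.46 at 2 months; difference of differences 1.23, SE 0.22, adjusted p = 0.0274). The Gstt2 call was lost in 10 of 16 omissions of 1 array and without the run term (adjusted p = 0.490). Dedd2, a death effector domain protein, had 7.22, 7.22, 7.04 and 7.22 in the E2f7/E2f8 knockout against 7.86, 7.67, 7.56 and 7.47 in the E2f7 knockout at 3 weeks. At 2 months it had 8.82, 8.63, 8.56 and 8.52 in the E2f7/E2f8 knockout against 8.16, 8.02, 7.79 and 8.26 in the E2f7 knockout. Its differences were −0.47 and 0.58, the groups did not overlap at either age, and the change with age was −1.05 (adjusted p = 0.00482), a call kept in all 16 omissions.

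**Figure D4:**
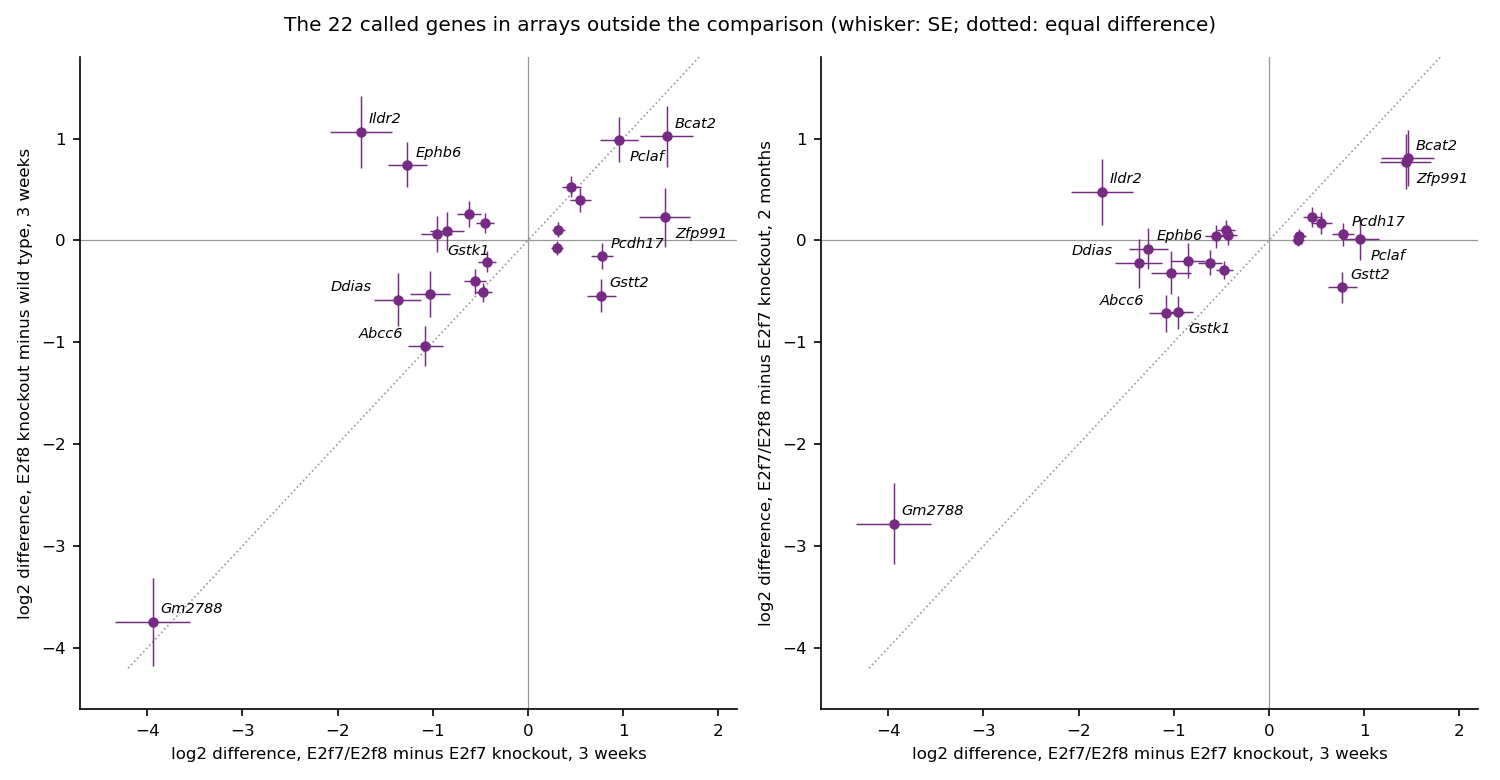
Log2 differences of the 22 called genes in the E2f7/E2f8 knockout minus the E2f7 knockout at 3 weeks (horizontal axis) against the E2f8 knockout minus wild type at 3 weeks (left panel, vertical axis) and the E2f7/E2f8 knockout minus the E2f7 knockout at 2 months (right panel, vertical axis), all from different arrays; whiskers are the SE and the dotted line marks equal differences. Abcc6, Pclaf and Gm2788 lie by the line on the left, and Ildr2, Ephb6 and Gstt2 lie across zero from it.

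Comparisons that share arrays with the main one give the place of each group. Pcdh17 differed by 1.02 between the E2f7/E2f8 knockout and the E2f8 knockout, by 0.09 between the E2f7 knockout and wild type and by 0.87 between the E2f7/E2f8 knockout and wild type. Its signals were 3.63, 3.36, 3.46 and 3.41 in the E2f8 knockout and 3.48, 3.52 and 3.86 in wild type, so every E2f7/E2f8 knockout array lay above every other array of that age. Pclaf differed by 0.42, 0.45 and 1.40 in the same order. Over all genes 126 (0.693%) were called between the E2f7/E2f8 knockout and the E2f8 knockout, 68 higher (0.374%) and 58 lower (0.319%). Between the E2f7 knockout and wild type 8 were called (0.0440%), 2 higher (0.0110%) and 6 lower (0.0330%). Between the E2f7/E2f8 knockout and wild type 118 were called (0.649%), 80 higher (0.440%) and 38 lower (0.209%).

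List medians moved with single arrays: over the omissions of 1 of the 8 arrays 13 of 37 changed sign, and 36 moved by over 1.5 times at least once; the exception was that of the PPAR alpha targets. Gene groups of the cell cycle had medians below zero with all 8 arrays. Of 32 measured G1/S targets 14 were higher and 18 lower in the E2f7/E2f8 knockout, with a median difference of −0.03, and Pclaf was called. Cdkn2c, a CDK inhibitor, differed by 0.33 (adjusted p = 0.427) and Rrm2, a ribonucleotide reductase subunit, by 0.53 (adjusted p = 0.587). Of 35 genes of DNA replication 6 were higher and 29 lower (median −0.11, none called), with Gins4, of the replicative helicase, at −0.32 (adjusted p = 0.290). Of 71 genes of mitosis 34 were higher and 37 lower (median −0.02, none called), with Plk1, a mitotic kinase, at 0.36 (adjusted p = 0.444). The mean level of the mitosis genes ran between 5.45 and 6.21 over the E2f7/E2f8 knockout arrays and between 5.83 and 6.03 over those of the E2f7 knockout, which lies inside the first range. Without replicate 1 of the E2f7/E2f8 knockout the medians of these 3 lists were 0.02, −0.04 and 0.13, and without replicate 3 that of mitosis was −0.10. In the E2f8 knockout against wild type they had medians of 0.13, 0.07 and 0.21, and 59 of the 71 genes of mitosis were higher. Replicate 3 of the wild type stood below the other wild-type arrays in all 3 lists (mitosis 5.87, 5.80 and 5.44), and without it the medians were −0.00308, −0.01 and 0.07, with 46 of 71 genes of mitosis higher.

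Most measured members of the DNA repair list and of the list of CDK inhibitors and p53 targets were lower. So were 29 of 35 genes of DNA replication, while over all 18193 genes 9781 were higher and 8412 lower. Of 26 genes of DNA repair 4 were higher and 22 lower (median −0.08, none called), with Rad54b, of recombination, at −0.43 (adjusted p = 0.290). Of 26 CDK inhibitors and p53 targets 6 were higher and 20 lower (median −0.14, none called). Ccng1, a p53 target, had log2 signals of 7.75, 7.55, 8.08 and 7.84 in the E2f7/E2f8 knockout, against 8.72, 8.54, 8.55 and 8.22 in the E2f7 knockout. The groups did not overlap, and the difference of −0.70 did not pass the test (adjusted p = 0.150). Without replicate 1 of the E2f7/E2f8 knockout the medians of the repair and p53 lists were −0.04 and −0.09. Of 18 genes of E2F, DP and pocket proteins 8 were higher and 10 lower (median −0.04).

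Among metabolic groups the larger medians were below zero. Of 20 genes of fatty acid synthesis 4 were higher and 16 lower (median −0.21, none called), against medians of 0.17 in the E2f8 knockout against wild type (−0.19 without replicate 3 of the wild type) and −0.38 at 2 months. Without replicate 3 of the E2f7/E2f8 knockout the median was −0.06. Of 22 PPAR alpha targets, the genes of fasting fat oxidation, 4 were higher and 18 lower (median −0.14, none called). Their mean level was 9.97 to 10.13 in the E2f7/E2f8 knockout and 10.16 to 10.60 in the E2f7 knockout, without overlap. Cyp4a31, a fatty acid hydroxylase of that list, differed by −1.51 (adjusted p = 0.176). Of 18 genes of gluconeogenesis 12 were lower (median −0.12), with G6pc, the glucose-releasing phosphatase, at −0.84 (adjusted p = 0.424); without replicate 2 of the E2f7/E2f8 knockout the median was −0.02. Of 18 cholesterol synthesis genes 10 were higher (median 0.06). Of 20 bile acid genes 12 were lower (median −0.12, and −0.01 without replicate 2 of the E2f7/E2f8 knockout), and of 27 genes of xenobiotic handling 18 were lower (median −0.04), with Gstt2 called higher. Pericentral and periportal genes, which divide the lobule, were evenly split: 11 of 19 pericentral genes were higher (median 0.02) and 8 of 16 periportal genes (median 6.04e-05), none called, with Axin2, a Wnt target of pericentral hepatocytes, at 0.40 (adjusted p = 0.290). Feeding state is not stated in the labels.

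Liver genes that differ between the sexes had the lowest medians over all 8 arrays, and the E2f7/E2f8 knockout arrays split in both lists. Of 15 female-biased genes 2 were higher and 13 lower (median −0.51, none called), and of 15 male-biased genes 5 were higher and 10 lower (median −0.27, none called). The mean level of the male-biased genes was 10.19, 9.92, 9.23 and 8.93 in the E2f7/E2f8 knockout, against 10.02, 9.67, 9.77 and 9.91 in the E2f7 knockout. That of the female-biased genes was 7.56, 7.79, 8.21 and 8.76 in the E2f7/E2f8 knockout, against 8.64, 8.72, 8.63 and 8.61 in the E2f7 knockout. Replicates 3 and 4 of the double knockout were thus low for male-biased genes and replicates 1 and 2 for female-biased genes. Without replicate 4 of the double knockout the male-biased median was 0.03, and without replicate 1 it was −0.53 and the female-biased median −0.28. Slc22a26, a female-biased organic anion transporter, had log2 signals of 8.20, 8.13, 8.35 and 8.90 in the E2f7/E2f8 knockout, against 9.71, 9.56, 9.66 and 9.30 in the E2f7 knockout. The groups were apart, and the difference of −1.16 did not pass (adjusted p = 0.150). Sult3a1, a female-biased sulfotransferase, averaged 5.61 ± 2.07 and 8.24 ± 0.19 in these groups (SD, n = 4 each), so the double-knockout arrays spread far more widely (difference −2.63, adjusted p = 0.209). Of 15 genes of growth hormone and IGF signalling, which sets sex-biased expression in liver, 10 were lower (median −0.06, none called). The sex make-up of the groups was not tested.

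Among the immune gene groups 1 gene, of MHC class II, was called. Of 12 genes of antigen presentation 3 were higher and 9 lower (median −0.08), with H2-Aa called. H2-Ab1, its partner chain, differed by −0.84 (adjusted p = 0.105), Cd74, the invariant chain, by −0.59 (adjusted p = 0.261) and H2-DMa, which loads peptides, by −0.46 (adjusted p = 0.176), while B2m of class I differed by 0.04. The mean level of the list was 8.85 to 8.97 in the E2f7/E2f8 knockout and 9.05 to 9.27 in the E2f7 knockout. In these whole-liver samples fewer cells of a type and less RNA per cell cannot be told apart. Markers of B cells, which carry class II, stood at 4.67 to 4.76 and 4.60 to 4.77 in these groups, and those of macrophages at 7.43 to 7.65 and 7.09 to 7.56, so both overlapped; their part in the fall of H2-Aa was not tested. Of 27 interferon-induced genes 16 were higher (median 0.07, none called), against 25 of 27 and a median of 0.34 at 2 months. Of 24 acute phase genes 11 were higher (median −0.01), against 23 and a median of 0.35 at 2 months.

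The hepatocyte genes that define liver were abundant in both groups: 18 of them averaged 12.92 to 13.06 over the E2f7/E2f8 knockout arrays and 12.94 to 13.001 over the E2f7 knockout arrays. Of 21 markers of sinusoidal endothelium 1 was higher and 20 lower (median −0.20, none called), with Bmp2, an endothelial ligand, at −0.45 (adjusted p = 0.462); without replicate 1 of the E2f7/E2f8 knockout the median was −0.12. Their mean level was 7.68 to 8.00 in the E2f7/E2f8 knockout and 7.91 to 8.03 in the E2f7 knockout, which overlap. The endothelial median was below zero in the other arrays too, at −0.27 in the E2f8 knockout against wild type (−0.18 without replicate 3 of the wild type) and −0.32 at 2 months. Of 18 macrophage markers 14 were higher (median 0.05, and −0.04 without replicate 2 of the E2f7 knockout; none called). In the E2f8 knockout against wild type 18 of 18 were lower (median −0.42, 2 called), and 15 without replicate 3 of the wild type (median −0.30, 1 called). Of 15 stellate cell markers 12 were lower (median −0.06). Markers of cholangiocytes, T and NK cells, B cells, neutrophils, erythroid cells, pancreas and fat had medians between 0.01 and 0.09, and none was called.

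Stress and housekeeping groups had medians between 0.03 and 0.14, beside 0.01 for all genes. Of 33 genes of the unfolded protein response 26 were higher and 7 lower (median 0.14, none called; 0.06 without replicate 1 of the E2f7/E2f8 knockout), with medians of 0.29 and 0.37 in the E2f8 knockout against wild type and at 2 months. Sdf2l1, an endoplasmic reticulum chaperone cofactor, differed by 0.64 (adjusted p = 0.427) at 3 weeks and 1.13 (adjusted p = 0.0400) at 2 months. Of 19 fetal liver and imprinted genes 13 were higher (median 0.04, none called). Of 25 genes of mitochondrial respiration 19 were higher (median 0.03) and of 18 ribosomal protein genes 15 (median 0.04). Of 21 circadian genes 14 were higher (median 0.05). Per3, a clock gene, had 7.59, 7.77, 7.5 and 7.97 in the E2f7/E2f8 knockout, against 8.21, 8.65, 8.51 and 8.65 in the E2f7 knockout (difference −0.80, adjusted p = 0.176), without overlap. Its limma adjusted p was 0.439 with only the 15 arrays of 3 weeks and 0.0330 with only the 8 arrays compared. Of 21 heat shock genes 12 were higher (median 0.03). Hspa1a, a chaperone, had 6.64, 6.78, 5.25 and 5.26 in the E2f7/E2f8 knockout against 7.24, 6.67, 7.43 and 7.19 in the E2f7 knockout, and Mt1, a metallothionein, had 8.29, 9.44, 12.19 and 12.13 against 10.73, 8.54, 9.11 and 8.91. In both genes replicates 3 and 4 of the double knockout stood apart from replicates 1 and 2, the same arrays in which Pclaf was highest.

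**Figure D5:**
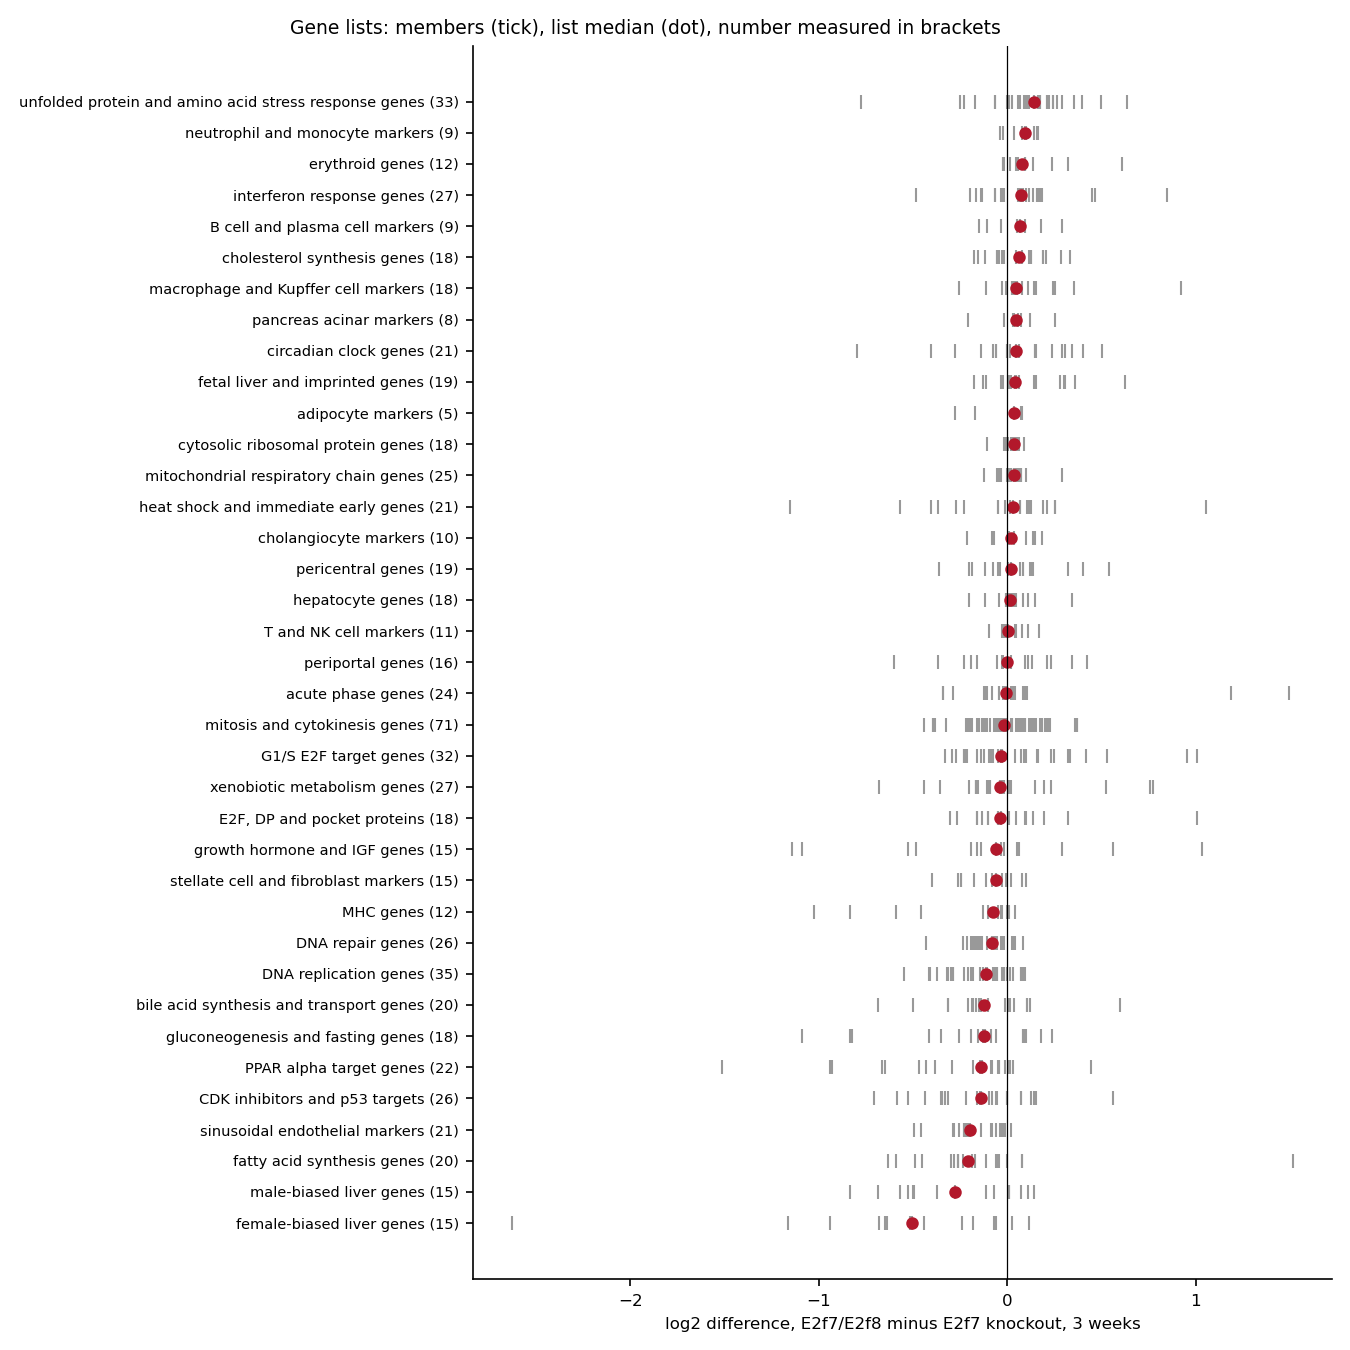
Log2 differences at 3 weeks (horizontal axis), E2f7/E2f8 knockout minus E2f7 knockout, of the members of 37 gene lists (one row each, the number measured in brackets); ticks are genes and dots list medians. Most medians lie close to zero, female-biased genes have the lowest at −0.51 (−0.28 without replicate 1 of the E2f7/E2f8 knockout), and called members are Pclaf, Gstt2 and H2-Aa.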

How the data were processed

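Liver RNA was hybridised to Affymetrix arrays with 45101 probe sets. The deposited values are log2 signals that the authors summarised by RMA, per the submitters' processing notes (version not stated). Left out were 64 control probe sets, 932 with several gene symbols and 9160 with none; 34945 had 1 symbol. Of these 34754 matched the GRCm38.p6 gene table by Entrez identifier, and 0 symbols changed. The 8 arrays compared have 1 distribution of sorted values. At 2 months arrays fell into a pair of distributions, found from the values (gap over 0.08) and not described in the labels, and 1 term of the fit separates them.

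Group means of all 35 arrays, E2f1/E2f2/E2f3 knockouts included for the spread only, were fitted with limma 3.58.1 in R 4.3.3 with an intensity trend (25 residual and a median of 5.19 prior degrees of freedom). Every adjusted p is limma's, over 18193 genes, called under 0.05. Genes named were E2f1, E2f2, E2f3, E2f7, E2f8 and Gm2788, the 15 largest called rises and falls without overlap of arrays (where under 10, those smallest in p up to 10), called list members and the smallest p of a list, and 5 each way in other comparisons; clone names were counted. Pclaf entered as a list member. List members beyond the first of a list with none called (such as Mt1 and Sult3a1), and the window around E2f8, were chosen after values were seen. The comparison, the 37 gene lists and the alternatives were chosen with earlier results of these data known, and lists have no test. Promoters are windows around RefSeq gene starts, searched in Python 3.11.15. On simulated data with 50 genes each changed by 0.5, 1, 2 and 4 log2, this comparison recovered 41, 50, 50 and 50, with 6 false calls among 18193 genes. The simulated noise was independent between arrays, at each gene's own fitted spread, and 200 genes were changed, against 22 called here. These counts therefore do not give the share of real differences that is found. Angptl8, at 1.52, was not called in the real data (adjusted p = 0.168). Alternatives were other sets of arrays, no run term, array weights, quantile normalization, no dim genes, the mean of probe sets, no trend, a replicate block, and omission of single arrays; omission of wild-type replicate 3 from the main comparison and from the lists of the E2f8 knockout against wild type was added after seeing the data.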

Additional observations from a re-analysis of the deposited data

Results flagged for a closer look

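In 6 of 87 groups of 4 arrays, over 29 genes at 3 weeks, 1 array stood apart from the other 3 by a gap above Dixon's critical share of the range; chance flags about 1 in 20. The share was 0.837 for E2f1 in the E2f7/E2f8 knockout (replicate 3), 0.843 for E2f2 in the E2f7 knockout (replicate 2) and 0.837 for Pcdh17 in the E2f7 knockout (replicate 1). It was 0.954 for Pgap3 in the E2f7/E2f8 knockout (replicate 2), 0.874 for Polk in the E2f7/E2f8 knockout (replicate 3) and 0.928 for 8430429K09Rik in the E2f8 knockout (replicate 4).

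In the fit of all 35 arrays the interaction of E2f8 loss with E2f7 was called for 5 of the called genes: Pcdh17 at 0.93, Gstt2 at 1.31, Ildr2 at −2.82, Ephb6 at −2.01 and Cfhr3 at −0.88 on the log2 scale (limma interaction, adjusted p 0.0148, 0.00722, 0.00722, 0.00194 and 0.0319). These genes were picked by the main comparison, which is part of the interaction. With only the 15 arrays of 3 weeks none of the 5 interactions was called. Over 15 omissions of 1 array Cfhr3 lost the interaction call in 11 and Pcdh17 in 2. Between the ages the effect of losing E2f8 was called as different for Gstt2, by 1.23 (limma, adjusted p = 0.0274), a call lost in 10 of 16 omissions of 1 array.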

How the results depend on the processing

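The 22 calls became 7 with only the 15 arrays of 3 weeks, 37 with only the 8 arrays compared, 7 without the run term, 47 with array weights and 5 to 24 over the omissions of 1 array; omission of wild-type replicate 3, added after seeing the data, gave 32. Quantile normalization (20), no dim genes (16), the mean of probe sets (28) and no trend (23) stayed within 1.5 times. Of the 22 genes they kept 18, 15, 15 and 22 in that order. Pcdh17 and Ephb6 were among those left out as dim. The replicate block gave 24 calls, 7 of them among the 22; same-numbered arrays had deviations correlated at −0.109, 0.025, −0.048 and −0.043 and 0 of 4 were closest to their own number, so the numbers do not pair these arrays. The 347 calls of the E2f8 knockout against wild type became 125, 23, 115 and 161 in those first 4 settings, 3 with the replicate block and 166 to 396 over omissions. The 23 calls of the interaction became 2, 2 and 1 in the first 3 settings, 5 with the block and 8 to 31 over omissions. The 43 calls at 2 months became 19 with their own 8 arrays, 2 without the run term, 431 with array weights and 4 to 68 over omissions. The 2 calls of the change with age became 10 with their own groups, 1 without the run term, 12 with array weights, 13 with the block and 1 to 3 over omissions. A fit of 3-week arrays could not be had for the comparisons at 2 months. The cause of these shifts was not tested. The degradation measure turned sign with Actb alone (0.0266), and E2f3 without replicate 1 of the E2f7 knockout (−5.36e-05, with 0.205 at the other end of its omissions). Of 1697 values of 94 gene results under alternatives 1335 kept direction and call, 340 lost the call, 21 gained it and 1 was reversed. Of 37 list medians 13 changed sign and 36 moved by over 1.5 times in at least 1 omission of an array, though none by more than 1 SD of the arrays' own list medians. Gm2788 and Gstk1 kept their call in every alternative of the main comparison run. Probe sets with signal near background limit small differences.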

Other observations

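The genes here were chosen after their values were seen, from those with large differences that were not called. Mndal, an interferon-inducible gene of the p200 family, averaged 2.99 ± 0.30 in the E2f7/E2f8 knockout and 6.15 ± 0.56 in the E2f7 knockout (SD, n = 4 each; difference −3.16, SE 0.69, adjusted p = 0.0537 in limma). With E2f7 present its difference was 1.22. Ppp1r3g, a glycogen-targeting subunit, differed by −2.38 (adjusted p = 0.192), Cox6b2, a cytochrome c oxidase subunit, by −1.87 (adjusted p = 0.531), and Pglyrp1, a peptidoglycan-binding protein, by −1.49. Mt2, a metallothionein like Mt1, differed by 1.49. Near E2f8 the clone-named gene 0610005C13Rik differed by −0.95 (adjusted p = 0.0585), by −0.97 in the E2f8 knockout against wild type (adjusted p = 0.0231) and by −0.89 at 2 months.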
